A study of Mus musculus with 6 samples.

Results

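The carboxylesterase genes of the Ces1, Ces2 and Ces3 subfamilies were followed in mouse liver, in a comparison of wild type animals with animals carrying a mutated long non-coding RNA gene, Lncenc1. The 10 genes, chosen by name from the 24034 rows of the expression table, were Ces1b, Ces1c, Ces1d, Ces1e, Ces1f, Ces1g, Ces2a, Ces2e, Ces3a and Ces3b. Liver was taken at 25 weeks of age from C57BL/6 mice, in 3 libraries of genotype lncenc1wt/wt (WT) and 3 of genotype lncenc13A/3A (HO), a genotype that the series calls knockout. The labels give neither what the allele changes, nor the sex, nor the substrain, nor whether each library came from a separate animal, so p-values measure the spread between these libraries. Lncenc1 itself was not analysed here, and the genotypes rest on the labels. The groups also differed in Nnt, the gene of the mitochondrial transhydrogenase, which was at 26.1, 45.0 and 24.4 FPKM in WT and 1.14, 0.794 and 1.48 in HO, with an adjusted p of 0.00721 in limma. The C57BL/6J substrain is known to carry a deletion in Nnt, so a difference of substrain and the mutation cannot be told apart in these groups, for the carboxylesterases as for other genes.

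Carboxylesterases are serine hydrolases that cleave esters, thioesters and amides. Most are held in the lumen of the endoplasmic reticulum of hepatocytes, where they hydrolyse ester drugs and prodrugs and also the stored triacylglycerol and cholesteryl esters that supply very low density lipoprotein (VLDL). In the mouse each subfamily has been expanded by tandem duplication, so that several neighbouring genes stand in the place of a single human gene. Expression was given as FPKM, fragments scaled by transcript length and by the mapped fragments of the library, so levels of different genes can be set side by side.

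All 10 genes passed the filter of a mean of 0.5 FPKM, and even the least covered value, for Ces1b, corresponded to an estimated 1029 reads. One pattern ran along the subfamilies: each of the 6 Ces1 genes had a lower mean in HO, Ces2a and Ces2e went opposite ways, and both Ces3 genes had a higher mean in HO. Ces1d fell from 242.7 ± 30.1 FPKM in WT to 122.8 ± 5.96 in HO (mean ± SD, n = 3 per group) and was the member called at an adjusted p of 0.05 (limma, Benjamini-Hochberg over all 13250 genes tested). Among all tested genes, 1.14% were called, 0.815% as lower and 0.325% as higher in HO. The HO and WT libraries did not overlap for 8 members, lower in HO for 6 and higher for 2. The same separation was found for 21.4% of tested genes in the lower direction and 6.42% in the higher direction. An unadjusted p under 0.05 was reached by 8 members and by 21.5% of tested genes. The members' median log2 change was -0.39, and that of the 6 Ces1 genes -0.53, beside -0.09 for all tested genes, 64.6% of which had a negative change.

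The genes lie in 2 clusters on chromosome 8 (coordinates of mm10, from GENCODE M21). The Ces1 cluster runs from 93020214 to 93535830, from Ces1a to Ces5a, and holds the members on the minus strand, in the order Ces1b (93056728 to 93080017), Ces1c (93099015 to 93131283), Ces1d (93166068 to 93197838), Ces1e (93201218 to 93229619), Ces1f (93256236 to 93279747) and Ces1g (93302369 to 93337308). The cluster of Ces2, Ces3 and Ces4a runs from 104734003 to 105150109 on the plus strand, with Ces2a (104734003 to 104741634), Ces2e (104926260 to 104934672), Ces3a (105048601 to 105058413) and Ces3b (105083753 to 105093929). A stretch of 11198 kb separates them.

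Bases upstream of the start are shown for the members that did not overlap between groups and have an entry among the RefSeq promoters (GRCm38.p6), where 7 of the 10 members matched. Ces1d, Ces1f and Ces3a had no entry. Each run is the 250 bases before the RefSeq start, 5′ to 3′ on the strand of the gene, and capitals mark TTATGTAA. The positions are chr8:93131284-93131533 (minus strand) for Ces1c, chr8:93229620-93229869 (minus) for Ces1e, chr8:93337210-93337459 (minus) for Ces1g, chr8:104733753-104734002 (plus) for Ces2a, chr8:104926010-104926259 (plus) for Ces2e and chr8:105083505-105083754 (plus) for Ces3b.
Ces1c: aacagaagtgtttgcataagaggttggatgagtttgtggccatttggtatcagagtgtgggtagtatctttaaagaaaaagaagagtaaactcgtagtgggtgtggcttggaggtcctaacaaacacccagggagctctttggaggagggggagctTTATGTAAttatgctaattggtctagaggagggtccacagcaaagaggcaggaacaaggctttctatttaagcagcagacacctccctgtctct
Ces1e: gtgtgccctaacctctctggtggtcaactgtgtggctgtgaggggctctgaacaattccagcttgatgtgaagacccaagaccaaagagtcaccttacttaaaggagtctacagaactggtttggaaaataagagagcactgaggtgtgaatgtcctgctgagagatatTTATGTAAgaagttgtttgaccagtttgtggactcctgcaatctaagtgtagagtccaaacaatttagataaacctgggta
Ces1g: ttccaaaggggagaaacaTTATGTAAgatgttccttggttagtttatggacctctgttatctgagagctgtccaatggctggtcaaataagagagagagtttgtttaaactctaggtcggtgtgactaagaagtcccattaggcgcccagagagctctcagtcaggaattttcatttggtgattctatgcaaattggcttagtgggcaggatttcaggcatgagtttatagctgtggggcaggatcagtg
Ces2a: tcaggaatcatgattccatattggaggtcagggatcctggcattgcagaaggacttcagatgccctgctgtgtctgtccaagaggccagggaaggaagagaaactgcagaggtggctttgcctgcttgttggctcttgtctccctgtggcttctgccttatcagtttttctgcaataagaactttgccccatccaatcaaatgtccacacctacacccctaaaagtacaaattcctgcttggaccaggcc
Ces2e: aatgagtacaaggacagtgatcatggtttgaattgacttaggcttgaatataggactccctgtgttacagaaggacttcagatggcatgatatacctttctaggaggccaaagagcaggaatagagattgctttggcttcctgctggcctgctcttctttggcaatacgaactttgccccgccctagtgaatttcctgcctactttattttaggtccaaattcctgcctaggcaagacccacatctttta
Ces3b: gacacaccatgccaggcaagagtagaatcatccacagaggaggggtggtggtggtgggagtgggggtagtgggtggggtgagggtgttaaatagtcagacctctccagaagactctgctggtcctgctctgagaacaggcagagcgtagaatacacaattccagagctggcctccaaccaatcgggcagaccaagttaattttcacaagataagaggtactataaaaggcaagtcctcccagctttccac

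The letters TTATGTAA, which match the D-box bound by PAR bZIP factors and NFIL3, were found in 5 of the 6 Ces1-type genes with an entry (Ces1a, Ces1b, Ces1c, Ces1e and Ces1g, but not Ces1h) and in none of the other 9 carboxylesterase genes with one. Of all 32851 promoter windows (250 bases before and 50 after the start), 0.938% held them on either strand. The match began 94 bases before the start in Ces1c, 81 in Ces1e, 232 in Ces1g and 84 in the first of the 2 windows of Ces1b. These genes are duplicates of each other, and the window of Ces1b was 93.4% identical to that of Ces1c. Other pairs of the Ces1 genes with a match ran from 56.2% (Ces1a and Ces1e) to 70.0% (Ces1a and Ces1g), with 59.3% for Ces1e and Ces1g. Among Ces2a, Ces2e and Ces3b the range was 52.8% to 69.4%, the highest for the duplicates Ces2a and Ces2e. These windows were aligned end to end, although the match lies at different distances from the start. Shared descent of the matches was not tested. The motif was picked after the sequences had been read. Of 11 motifs searched on both strands, none of the other 10 overlapped a TTATGTAA match. AGGTCA, the half-site of nuclear receptors, was in 3 of the 15 carboxylesterase genes (Ces2a, Ces2h and Ces4a) and in 16.3% of all windows. TTGCNNAA was in 5 (10.8% of windows), CCAAT in 10 (37.4%), TATAAA in 3 (13.6%), GTTAAT in 2 (7.10%), TTCNNNGAA in 2 (8.30%) and GGGCGG in 1 (35.7%). TGTTTAC (3.65% of windows), CAAAGTCCA (0.475%) and CACGTG (7.15%) were in none. A match in letters is a description of these windows and no evidence of binding.

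**Figure D1:**
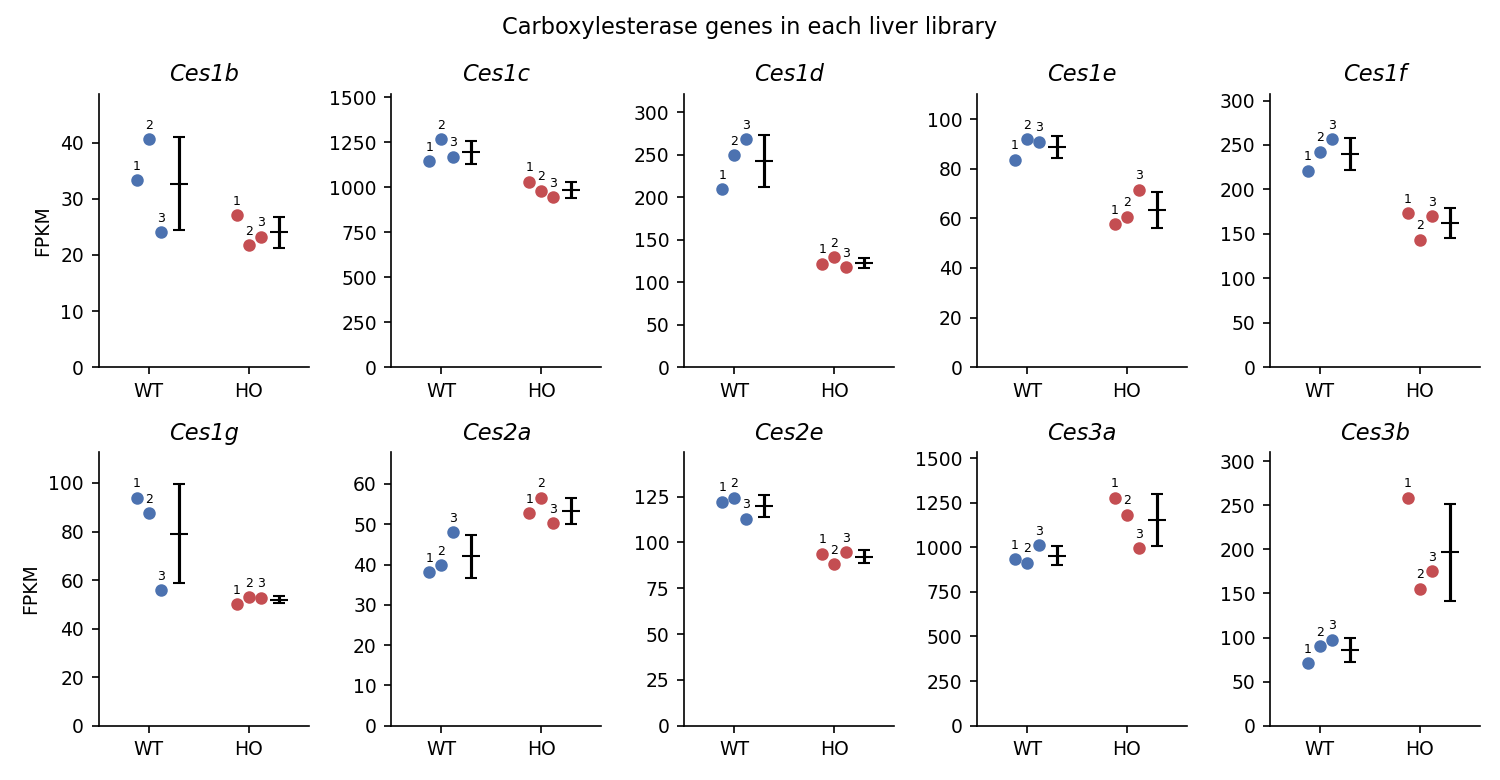
FPKM (linear axes from 0) of the 10 carboxylesterase genes in the 3 WT (blue) and 3 HO (red) liver libraries, numbered by replicate, with the mean and SD of each group as a black bar. Ces1d sits between 209.6 and 268.6 in WT and between 117.6 and 129.3 in HO, while Ces3b is above 155 in every HO library and below 98 in every WT library.

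Ces1d encodes the triacylglycerol hydrolase of liver and adipose tissue, an enzyme of the endoplasmic reticulum that releases stored fat for VLDL assembly. Its level was 209.6, 249.9 and 268.6 FPKM in WT replicates 1, 2 and 3, and 121.6, 129.3 and 117.6 in HO replicates 1, 2 and 3. The HO libraries lay close together and all were below the lowest WT library. The log2 change on the log2(FPKM + 0.5) scale was -0.97 ± 0.11 (SE, limma adjusted p = 0.0245), and the mean FPKM of WT was 1.98 times that of HO. The call was lost without WT replicate 2 (limma adjusted p = 0.104), HO replicate 2 (0.0535) or HO replicate 3 (0.0622), with log2 changes of -0.94 to -1.01. Ces1d was also lower in HO relative to Ces1c, Ces1e and Ces1f, though not clearly relative to Ces1g. The ratio of Ces1d to Ces1c ran from 0.183 to 0.230 among WT and from 0.118 to 0.132 among HO libraries, and that of Ces1d to Ces1e from 2.51 to 2.96 and from 1.64 to 2.13. The ratio to Ces1f ran from 0.948 to 1.05 and from 0.692 to 0.903, so none of these ratios overlapped between groups. Relative to Ces1g, whose levels are given below, WT replicate 1 fell within the range of the HO libraries. With 3 libraries against 3 an exact permutation test of such a ratio cannot go below p = 0.10.

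Ces1d is also made by adipocytes, and summed adipocyte markers were lower in HO too. The 5 of 8 listed markers found in the table summed to 88.0 to 93.4 FPKM in WT and 26.5 to 42.3 in HO. Adipoq and Plin1, which define adipocytes, were at 0 in all 6 libraries, and the sum came from Cfd, Cidec and Fabp4, of which 2 had a negative and 1 a positive change and none was called. The part of adipocyte RNA in the Ces1d values was not tested. Intestinal markers (3 of 7 in the table, among them Apoa4, which liver also makes) summed to 412.9 to 689.1 FPKM in WT and 289.6 to 432.1 in HO, and none of 6 kidney tubule markers was in the table. Hepatocyte markers (10 of 10) summed to 66988 to 70420 FPKM in WT and 58614 to 62122 in HO, but the sum is carried by the most abundant of them. By gene, 5 had a negative and 5 a positive change, with a median log2 change of 0.01. Without overlap between groups, 4 were higher and 3 lower in HO, and 1 was called, as higher. Their part in the Ces1 values was not tested. Among other liver cells, summed stellate cell markers were at 86.1 to 108.7 FPKM in WT and 58.1 to 73.4 in HO. Cholangiocyte markers summed to 24.2 to 27.6 and 20.1 to 23.0. The sums of Kupffer cells (75.5 to 133.6 and 62.3 to 81.5) and endothelial cells (46.4 to 57.1 and 43.9 to 48.5) overlapped. By gene, a negative change was found for 8 of 8 tested Kupffer cell, 6 of 7 endothelial, 6 of 7 stellate and 3 of 4 cholangiocyte markers. Of all tested genes, 64.6% had one. No gene of these lists was called. In whole liver, fewer cells of a type and less RNA per cell cannot be told apart.

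Ces1f, a hydrolase associated with lipid droplets, was at 221.1, 242.6 and 256.6 FPKM in WT and 173.3, 143.3 and 169.9 in HO. Every HO library was below every WT library, and the gene just missed the threshold (log2 change -0.57 ± 0.11, limma adjusted p = 0.0581). Ces1e, or egasyn, which anchors beta-glucuronidase in the endoplasmic reticulum, was at 83.6, 92.0 and 90.9 FPKM in WT and 57.7, 60.6 and 71.6 in HO, a log2 change of -0.49 ± 0.10 (limma, adjusted p = 0.0747). Here too the groups did not overlap.

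Ces1c, which encodes the main carboxylesterase of mouse plasma, was the most abundant member in WT. It stood at 1144, 1268 and 1169 FPKM in WT and at 1029.9, 982.0 and 944.5 in HO, with no overlap and a log2 change of -0.28 ± 0.09 (limma adjusted p = 0.142). Ces1g, an enzyme that restrains lipid storage in the liver, was at 94.0, 87.4 and 55.9 FPKM in WT and 50.2, 53.0 and 52.8 in HO, a log2 change of -0.57 ± 0.19 (limma, adjusted p = 0.154). WT replicate 3 lay close to the HO libraries and the other WT libraries well above them. Without WT replicate 3 the log2 change of Ces1g was -0.80 and passed (limma adjusted p = 0.0196). As the library left out was the WT one nearest to HO, the pass depends on the choice and cannot be read as a difference. Ces1g did not pass with any other 1 library left out (limma adjusted p = 0.2148 to 0.3685), nor in any setting that kept all libraries. Ces1b was at 33.3, 40.6 and 24.1 FPKM in WT and 27.1, 21.7 and 23.2 in HO, where the groups overlapped (log2 change -0.41 ± 0.19, limma adjusted p = 0.269). The coding sequences of Ces1b and Ces1c were 91.1% identical. Of the 50-base stretches of Ces1b transcripts, 11.6% were also found in other genes, most of them in Ces1c. Reads from those stretches could be assigned to either gene, so the level of Ces1b beside the far more abundant Ces1c is uncertain.

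Both Ces3 genes were higher on average in HO, and Ces3b had the largest log2 change of the 10 members. Ces3b, a liver esterase, was at 70.7, 89.8 and 97.4 FPKM in WT and 258.8, 155.3 and 175.6 in HO. The lowest HO library exceeded the highest WT library, and HO replicate 1 stood above the other HO libraries. The mean FPKM was 2.29-fold higher in HO. The log2 change of Ces3b was 1.17 ± 0.21 and just missed the threshold (limma adjusted p = 0.0526). It passed in 3 of 17 settings. These were 2 other ways of scaling the libraries, median-of-ratios (limma adjusted p = 0.0461) and quantile normalization (0.0497), and array weights (0.0275). Ces3b did not pass with no filter (limma adjusted p = 0.0904), no trend (0.0763) or a replicate block (0.104). It also failed with any 1 library left out (limma adjusted p = 0.0514 to 0.1836). Its close copy Ces3a, the most abundant member in HO, was at 932.3, 912.4 and 1012 FPKM in WT and 1278, 1183 and 994.8 in HO. HO replicate 3 fell within the WT range (log2 change 0.27 ± 0.12, limma adjusted p = 0.239).

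The coding sequences of Ces3a and Ces3b were 95.3% identical, and 26.2% of the 50-base stretches of Ces3b transcripts were also found in Ces3a. Reads from those stretches could be assigned to either gene, so the level of Ces3b beside the far more abundant Ces3a is uncertain. The ratio of Ces3b to Ces3a was 0.0758, 0.0985 and 0.0962 in WT and 0.202, 0.131 and 0.176 in HO. It was thus higher in each HO library than in any WT library. Acute phase genes also differed within HO: the 16 on the list summed to 9901 to 12728 FPKM in WT, 13117 in HO replicate 1, and 27631 and 26643 in HO replicates 2 and 3. Ces3a and Ces3b were highest in HO replicate 1, and the part of the acute phase in their values was not tested.

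The 2 Ces2 members had mean differences of opposite sign, and neither passed the threshold. Ces2a, which is inducible through the xenobiotic receptors PXR and CAR, was at 38.0, 39.9 and 48.0 FPKM in WT and 52.7, 56.6 and 50.3 in HO, all HO libraries being higher (log2 change 0.34 ± 0.11, limma adjusted p = 0.145). Ces2e, in the same cluster, was at 122.3, 124.4 and 112.8 FPKM in WT and 93.8, 88.0 and 94.7 in HO, all HO libraries being lower (log2 change -0.38 ± 0.08, limma adjusted p = 0.0750). The ratio of Ces2a to Ces2e was 0.311, 0.321 and 0.426 in WT and 0.562, 0.643 and 0.531 in HO. Their coding sequences were 83.3% identical. Ces2a shared 17.3% of its 50-base stretches with other genes, most of them with the pseudogene Gm7208, which was at 0.826 ± 0.237 FPKM in WT and 0.757 ± 0.152 in HO.

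The make-up of the members' summed expression differed between the groups, while its total overlapped. All 10 members summed to 2949, 3147 and 3135 FPKM in WT and 3144, 2873 and 2695 in HO, and made up 0.582% to 0.628% of all FPKM in WT and 0.544% to 0.607% in HO. The 6 Ces1 genes summed to 1786, 1980.3 and 1865 FPKM in WT and 1459.8, 1389.9 and 1379.6 in HO, a log2 ratio of the means of -0.41. The 2 Ces3 genes summed to 1003, 1002 and 1109.5 in WT and 1537, 1338 and 1170.4 in HO, a log2 ratio of 0.38. The share of Ces1 in the members' sum ranged over 59.5% to 62.9% for WT and 46.4% to 51.2% for HO libraries, and that of Ces3 over 31.8% to 35.4% and 43.4% to 48.9%. Neither share overlapped between the groups. With Ces2 at 4.66% to 5.44%, the 2 shares are nearly complements and show the same difference. Most of the Ces1 sum came from Ces1c (mean 1194 FPKM in WT and 985.5 in HO). Ces3a made up most of the Ces3 sum (952.3 and 1152), and neither gene was called. The 2 Ces2 genes summed to 160.3 to 164.3 FPKM in WT and 144.6 to 146.6 in HO, a log2 ratio of -0.15 that shrank to -0.05 with median-of-ratios scaling. Sums are descriptions of chosen genes and were not tested.

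**Figure D2:**
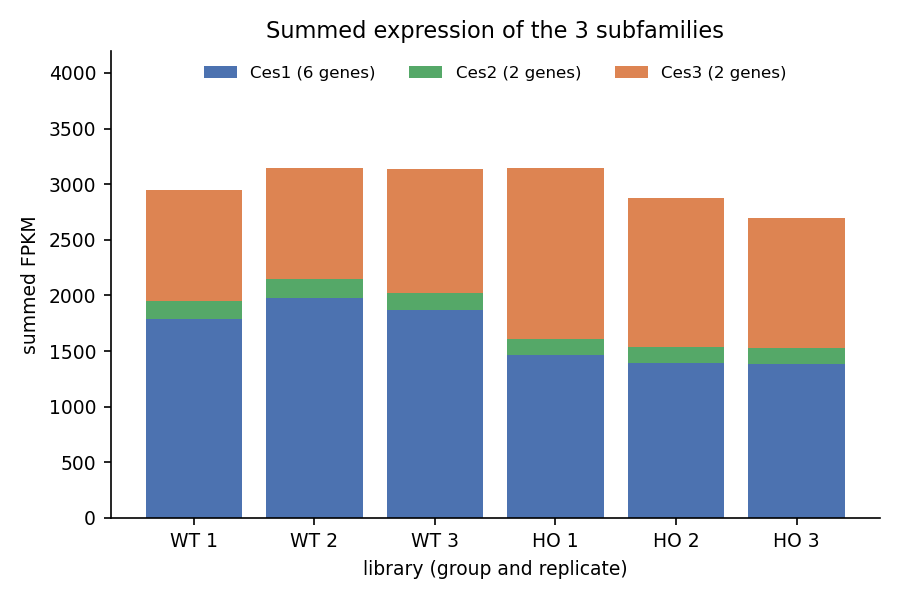
Summed FPKM (linear axis from 0) of the 6 Ces1, 2 Ces2 and 2 Ces3 members, stacked for each of the 3 WT and 3 HO libraries. The blue Ces1 part is lower in each HO library (1380 to 1460) than in any WT library (1786 to 1980), and the orange Ces3 part is higher in HO, while the full heights overlap.

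The order of the members by level differed in places between the groups. In WT, Ces1c was followed by Ces3a without overlap, then by Ces1d and Ces1f, whose means of 242.7 ± 30.1 and 240.1 ± 17.9 FPKM did not differ beyond their spread, and by Ces2e. Ces1e (88.8 ± 4.53), Ces3b (86.0 ± 13.8) and Ces1g (79.1 ± 20.4) came next and were not separable, and Ces2a and Ces1b, which overlapped, were lowest. In HO, Ces3a and Ces1c overlapped at the top, Ces3b and Ces1f overlapped below them, and Ces1d followed at a lower level with no overlap. By mean FPKM among all 24034 genes, Ces1c stood at rank 54 in WT and 69 in HO, Ces3a at 72 and 62, Ces1d at 259 and 523, and Ces3b at 765 and 311.

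In the Ces1 cluster all 6 tested carboxylesterase genes had negative log2 changes, and that of Ces1d was the largest. Outside the cluster, the nearest tested gene on the left was Mmp2, a gelatinase 166.8 kb away (log2 change -0.31, limma adjusted p = 0.384). Among the non-coding genes within it, Gm45727, between Ces1e and Ces1f, was at 1.92 ± 0.178 FPKM in WT and 0.679 ± 0.308 in HO, a log2 change of -1.07 (limma, adjusted p = 0.0703), and Gm45909, which lies inside Ces1d on the same strand, was at 2.56 ± 0.881 and 1.26 ± 0.578. The lowest values of Gm45727 and Gm45909 corresponded to an estimated 4.8 and 19.3 reads, so their changes rest on few reads. In the other cluster the log2 changes of members and non-members were 0.34 for Ces2a, 0.74 for Ces2c, -0.38 for Ces2e, -0.06 for Ces2g, 0.27 for Ces3a, 1.17 for Ces3b and 2.13 for Ces4a, in order of position. Next to it, Gm7208 on the left (51.8 kb away, -0.07) and Cbfb, a partner of RUNX factors, on the right (20.6 kb away, 0.18) were not called (limma adjusted p = 0.861 and 0.432). Gm45724, which overlaps Ces3a on the opposite strand, was at 13.2 ± 3.09 FPKM in WT and 15.8 ± 1.30 in HO.

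**Figure D3:**
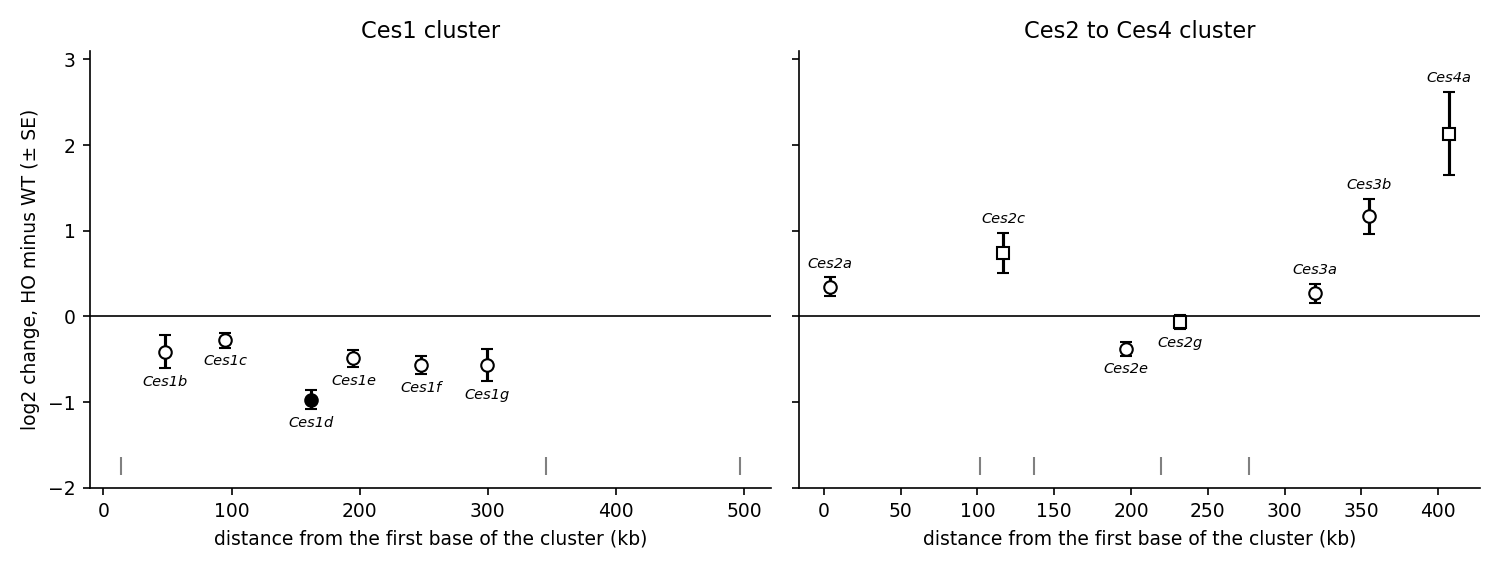
Log2 change (HO minus WT, ± SE) of each tested carboxylesterase gene against its distance in kb from the first base of its cluster. Circles are the 10 members, squares other carboxylesterase genes, filled symbols genes called at an adjusted p of 0.05, and grey ticks genes of the family that were not tested; the Ces1 genes all lie below 0, with Ces1d lowest at -0.97, and the right panel rises to 2.13 for Ces4a.

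The table held 7 further carboxylesterase genes, of which 3 passed the filter and none was called. Ces4a, at the far end of the second cluster, was at 0.493, 0.679 and 3.29 FPKM in WT and 7.87, 7.48 and 5.11 in HO, with WT replicate 3 nearer to the HO libraries (log2 change 2.13 ± 0.49, limma adjusted p = 0.0804). Without WT replicate 3 its log2 change was 2.74 and passed (limma adjusted p = 0.00873). That was the WT library nearest to HO, so the pass depends on the choice and cannot be read as a difference. With any other 1 library left out Ces4a did not pass (limma adjusted p = 0.1154 to 0.2397). Ces2c, a triacylglycerol and diacylglycerol hydrolase, was at 10.6, 7.64 and 6.20 FPKM in WT and 17.7, 13.5 and 10.6 in HO, where the groups did not overlap by a narrow margin (log2 change 0.74 ± 0.24, limma adjusted p = 0.141). Ces2g was at 17.0 ± 0.491 FPKM in WT and 16.3 ± 0.718 in HO. Of the rarely detected genes, Ces2b was listed at 0, 0 and 0.0267 FPKM in WT and at 0.685, 0.498 and 0.217 in HO. Ces1a stayed at or under 0.0973 FPKM, Ces2h at or under 0.285, and the pseudogene Ces2d-ps was at 0 in all 6 libraries.

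Related pathways were counted in the same test, in which 0.815% of all tested genes were called lower and 0.325% higher, 64.6% had a negative change and the median was -0.09. Of 15 tested lipases and lipase cofactors, 2 fell and none rose, with a median log2 change of 0.03. These were Lipg, the endothelial lipase (11.1 ± 1.91 FPKM in WT, 4.32 ± 0.553 in HO, with an adjusted p of 0.0272 in limma), and Lipa, the lysosomal acid lipase (81.1 ± 7.09 and 45.3 ± 3.65, limma adjusted p = 0.0284). Both calls were lost with any 1 library left out other than WT replicate 3 and HO replicate 1, where the adjusted p in limma was 0.0576 to 0.110 for Lipg and 0.0622 to 0.127 for Lipa, and that of Lipg also without a filter (0.0513). A replicate block lost both as well (limma adjusted p = 0.0632 for Lipg and 0.0676 for Lipa). Of 12 genes of VLDL assembly none was called (median -0.20). Those with the smallest p, Tm6sf2 and Cideb, which act in loading lipid onto VLDL, had log2 changes of -0.53 and -0.38 (limma adjusted p = 0.0635 and 0.111). Of 14 other esterases and amidases none was called and 13 had a negative change (median -0.24), led by the butyrylcholinesterase gene Bche (-0.64, limma adjusted p = 0.0571) and Ephx1, the microsomal epoxide hydrolase (-0.75, adjusted p = 0.0747). With median-of-ratios scaling 11 of the 14 were negative (median -0.13), beside 50.4% of all tested genes.

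Among 17 regulators reported to act on carboxylesterase genes, 1 fell: Nfe2l2, which encodes the stress-response factor NRF2, was at 38.5 ± 3.19 FPKM in WT and 24.8 ± 0.614 in HO, with an adjusted p of 0.0353 in limma, and the median of the list was 0.01. This call was lost with median-of-ratios scaling (limma adjusted p = 0.0578), quantile normalization (0.0555), no filter (0.0601) or no trend (0.0674), and without any 1 library other than WT replicate 3 (0.0522 to 0.139). Of 11 tested targets of the receptors CAR and PXR outside the family, 2 fell and none rose, with a median of -0.68. They were Cyp3a11, a drug-oxidising P450 (444.1 ± 62.0 FPKM in WT, 222.5 ± 30.6 in HO, with an adjusted p of 0.0339 in limma), and the glutathione transferase gene Gstm1 (586.9 ± 46.8 and 309.3 ± 53.3, adjusted p = 0.0360). The call of Gstm1 was lost with median-of-ratios scaling (limma adjusted p = 0.0560), no filter (0.0742) or no trend (0.0599), and without any 1 library other than HO replicate 2 (0.0535 to 0.145). That of Cyp3a11 was lost with no filter (0.0698) or no trend (0.0570), and with any 1 library left out other than WT replicate 3 and HO replicate 1 (0.0912 to 0.141 in limma). All 16 acute phase genes had a positive change (median 0.91), of which Saa4 rose (171.8 ± 59.5 FPKM in WT, 500.7 ± 81.1 in HO, with an adjusted p of 0.0372 in limma). The call of Saa4 was lost with no filter (limma adjusted p = 0.0763) or no trend (0.0577), and with any 1 library left out other than WT replicate 3 and HO replicate 1 (0.108 to 0.150). A replicate block also lost the calls of Nfe2l2 (limma adjusted p = 0.0837), Cyp3a11 (0.0632), Gstm1 (0.0852) and Saa4 (0.0614).

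The genes whose 6 values were most like those of each subfamily sum were sought among 11557 genes outside the family with a mean of 1 FPKM or more. For Ces1 these were BC004004 (Pearson's r = 0.992 over 6 libraries), the ATP synthase subunit gene Atp5g3 (0.990) and the ribosomal Rpl36al (0.990). For Ces2 they were Nnt (0.995), Bmp5, a growth factor (0.994), and Atp5g3 (0.994). For Ces3 they included Tbc1d2b (0.988) and Slc25a33, a mitochondrial pyrimidine nucleotide carrier (0.985). Such correlations share the difference between the 2 groups and the same libraries, and are given as a description.

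The members' directions held when the libraries were rescaled. The summed FPKM of the 6 libraries was 495570 to 518218, but the median gene lay at 0.853 to 0.879 FPKM in WT libraries and at 0.742 to 0.788 FPKM in HO libraries. Median-of-ratios scaling, which moved the median log2 change of all genes from -0.0936 to -0.0022, kept the sign of all 10 members. It left 5 members lower and 3 higher in HO without overlap, beside 1645 and 1584 of all tested genes. Ces1g then overlapped between the groups and Ces3a no longer did. In the whole table that scaling gave 67 genes higher and 66 lower, against 43 and 108 without it.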

How the data were processed

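Total RNA of mouse liver was sequenced in 6 libraries made with a directional kit, and the authors deposited 1 table of FPKM values per gene. HISAT2, HTSeq, DESeq2, StringTie and mm10 are named, with no version or role, per the submitters' processing notes, and the strand setting of the counting is not given. Low values were whole multiples of 1 read in only 29.9% to 32.4% of cases (tolerance 0.02), so counts were not recovered. Those steps gave the libraries a relative depth, which was used only to express a gene's lowest value in read equivalents. Values were tested as log2(FPKM + 0.5) with limma 3.58.1 in R 4.3.3 (eBayes with trend, two-sided, Benjamini-Hochberg over all genes averaging at least 0.5 FPKM) at an adjusted p of 0.05, and the code was tested on simulated data. No libraries were identical. Members and lists were chosen with earlier results of these data known. Named genes were all family members, the 3 genes most like each subfamily sum, the called genes of each list or else the 2 with the smallest p, and the genes flanking each cluster; 2 of these are not reported here. Coding identity and shared 50-base stretches came from GENCODE M21. Protein features were not analysed here. Alternatives changed the pseudocount, filter, scaling, variance model, replicate block and libraries.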

Additional observations from a re-analysis of the deposited data

How the results depend on the processing

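All 10 members kept their direction in the 17 settings. Over the whole table, limma called 151 genes, against 100 with a pseudocount of 0.1, 40 without a filter, 77 without the trend, 941 with array weights and 25 with a replicate block. Leaving out 1 library gave 6 (without WT replicate 2) to 262 (without WT replicate 3). Among members, 1 was called, against 2 after quantile normalization, 2 after median-of-ratios scaling, 5 (Ces1d, Ces1e, Ces1f, Ces2e and Ces3b) under array weights, 0 with the replicate block and 0 to 2 with 1 library left out. With the replicate block Ces1d had a limma adjusted p of 0.0613. Same-numbered libraries deviated together with correlations of 0.066, -0.028 and 0.0147, so the numbers were not taken as pairs. With median-of-ratios scaling the log2 ratio was -0.31 for the Ces1 sum and -0.0507 for the Ces2 sum, and with the other Ces2 genes added the latter was -0.0876. The cause of these shifts was not tested. FPKM keeps no counts, so counting error is not known per value.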

Other observations

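The letters TTATGTAA upstream of the Ces1 genes match sites of 4 factors, and these were looked up after the sequences had been read. Dbp, a circadian activator, was at 22.5, 21.7 and 84.7 FPKM in WT and 48.2, 44.0 and 60.8 in HO (limma adjusted p = 0.570), so that WT replicate 3 stood apart. Without it the WT mean was 22.1 FPKM, every HO library was higher, and the gene passed the threshold (log2 change 1.18, limma adjusted p = 0.0269). That library was picked for its high level, so the pass depends on the choice and cannot be read as a difference. Dbp had an adjusted p of 0.5993 to 0.8795 in limma with any other 1 library left out. Its relative Tef was at 20.1, 24.7 and 42.0 FPKM in WT and 38.3, 43.5 and 28.4 in HO, again with WT replicate 3 highest in WT (limma adjusted p = 0.464, and 0.124 without that library). Hlf (10.1 ± 0.799 FPKM in WT and 9.67 ± 1.06 in HO, SD, n = 3, adjusted p = 0.772 in limma) and the repressor Nfil3 (13.8 ± 1.55 and 13.6 ± 2.25, adjusted p = 0.927) were not called. These levels were looked at after the motif, and no relation to the Ces1 genes was tested.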
